A study of Mus musculus with 105 samples.

Results

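Unspliced and spliced RNA of single TX1072 cells were compared 1 day after differentiation began, gene by gene, to find the genes whose unspliced RNA had moved further than their spliced RNA. Unique molecular identifiers (UMIs) were summed over the cells of day 0 and over the cells of day 1 with 40000 or more spliced plus unspliced UMIs and scaled to CPM, counts brought to the same total, within each table. A gene was included when it had 200 or more unspliced UMIs over both days, which 7272 of the 24923 genes in the table reached. Of these, 6514 also had 200 or more spliced UMIs, so that both changes could be set side by side, and 758 had fewer. An unspliced-led gene has an unspliced log2 change of 1 or more in either direction that is at least 1 further in that direction than its spliced change, with a pseudocount of 1 CPM on both. By this rule 224 genes were unspliced-led increases and 218 were unspliced-led decreases.

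A gene is transcribed into a precursor RNA that still holds its introns, and splicing then removes them to leave the mature mRNA. Unspliced RNA is usually short-lived and follows the current rate of transcription, whereas spliced mRNA is a store that fills and drains at a pace set by its stability, so a stable mRNA can persist after its gene has been turned down. Mouse embryonic stem cells (mESCs) are held in the naive state of pluripotency by leukaemia inhibitory factor (LIF), which acts through the Lif receptor and Stat3, and by 2 inhibitors (2i) against Gsk3 and MEK. When these are withdrawn, Wnt signalling falls, the ERK kinases become active, the naive transcription factors are shut off and the cells pass into a formative state that resembles the epiblast after implantation.

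TX1072 is a female mESC line from a cross of a C57BL/6 (B6) and a CAST/EiJ (Cast) mouse, used here as clone A3, in which doxycycline can switch on Xist from the B6 chromosome through an inserted promoter with rtTA expressed from Rosa26. Day 0 cells were grown in serum with LIF and 2i, and day 1, 2, 3 and 4 cells had been without LIF and 2i for that many days in serum on fibronectin. There was 1 culture per day, loaded on 400 capture sites in 10 capture columns of 40 sites. Bulk RNA did not enter the rule, although the rule and the gene lists were chosen with earlier results of these data known. It was sequenced on the same days in 3 replicates of TX1072, of TXdXicB6 and of TXdXicCast. The latter are single clones of TX1072 that lack 773 kb around Xist on the B6 or on the Cast chromosome. Replicate 1 of the TX1072 bulk came from the same cell population as the single cells.

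After the depth minimum, 325 cells of day 0 held 5125066 unspliced and 42881275 spliced UMIs, and 356 cells of day 1 held 6328572 and 41502857. The median cell had 145121 UMIs at day 0 and 131972.5 at day 1. With 1 culture per day no test between days could be made from the single cells. The capture columns hold cells of the same culture and show only the technical and cell-to-cell spread, and the 95% intervals given for single genes cover counting error only. Capture sites with several cells were not sought here. The study removed them by imaging, and when only its retained cells were used (277 of day 0 and 325 of day 1) there were 224 unspliced-led increases and 229 unspliced-led decreases. Among these were 182 of the 224 increases and 182 of the 218 decreases of the main classes.

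The unspliced share of all UMIs was higher on day 1. It was between 9.74% and 11.8% in the capture columns of day 0 (median 10.5%) and between 12.4% and 14.3% in those of day 1 (median 13.2%), with no overlap. The medians of days 2, 3 and 4 were 11.1%, 12.5% and 11.9%. Because each table was scaled to its own total, this shift is removed from the changes below. Scaling both tables together shifted the unspliced change of the genes by a median of 0.29 and the spliced change by a median of -0.04. The libraries of day 1 also stood apart in that 2 spliced values exceeded the 1024 UMIs that 5 bases can encode (highest 1424), whereas the highest values of days 0, 2, 3 and 4 were 874, 741, 891 and 1007. Reads of day 1 came from 2 sequencing runs with different read lengths, which share the deposited counts and cannot be separated here. The part of these runs in the values of day 1 was not tested.

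**Figure D1:**
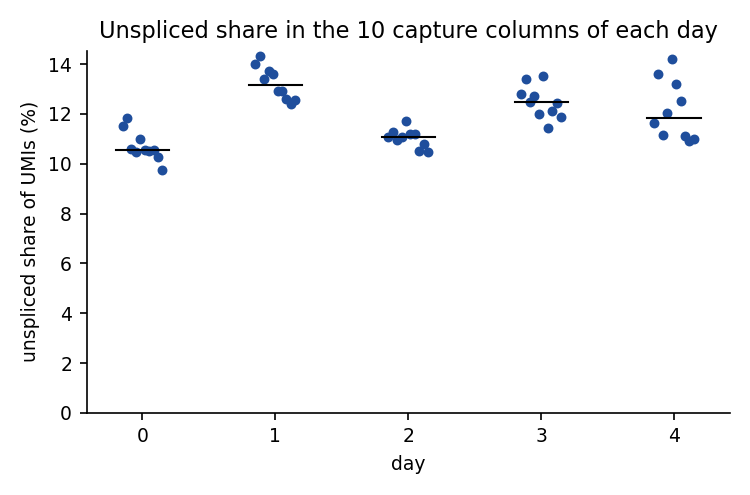
Unspliced share of all UMIs (%) in the 10 capture columns of each day, 1 point per column and a line at the median. All columns of day 1 lie above all columns of day 0, and the columns of days 2, 3 and 4 range from 10.5% to 14.2%.

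Markers of mESCs were abundant. Esrrb, Nanog, Zfp42 and Pou5f1 summed to 1135 spliced CPM at day 0 and 553 at day 1, with Esrrb the most abundant, whereas Sox2 was not in the table used here. Primitive endoderm markers summed to 9.49 and 12.0 CPM with Dab2 the most abundant and Foxa2 at 0, and none of the 6 was among the included genes. The 5 trophoblast markers summed to 39.2 and 29.9 CPM, of which Tfap2c, a gene also used in pluripotent cells, made up 35.3 CPM at day 0 and 3.61 at day 1 and Eomes 3.24 and 26.3, with Elf5 at 0. The 6 fibroblast markers summed to 28.9 and 35.9 CPM, with Thy1 at 9.30 and 34.4 CPM, Col1a2 at 11.8 and 1.52 CPM, Col1a1 at 7.81 and 0 CPM, and Col3a1, Postn and Lum at 0. All 4 markers of 2-cell-like cells in the table were at 0.

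Across the 6514 genes, unspliced and spliced changes went together (Pearson's r = 0.66, Spearman's rho = 0.54, across genes that share libraries and depth, given as a description). Among all 7272 genes, 11.6% had an unspliced log2 change of 1 or more upward and 10.6% downward. The spliced change passed 1 in 8.09% of the 6514 genes upward and in 6.86% downward. Besides the unspliced-led genes, 137 genes were spliced-led increases and 108 were spliced-led decreases by the same rule with the roles exchanged. In 248 genes both changes were 1 or more upward and less than 1 apart, and in 194 both were 1 or more downward (matched genes). Of the 758 genes with few spliced UMIs, 174 had an unspliced change of 1 or more upward and 92 downward, with a median of 0.13.

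**Figure D2:**
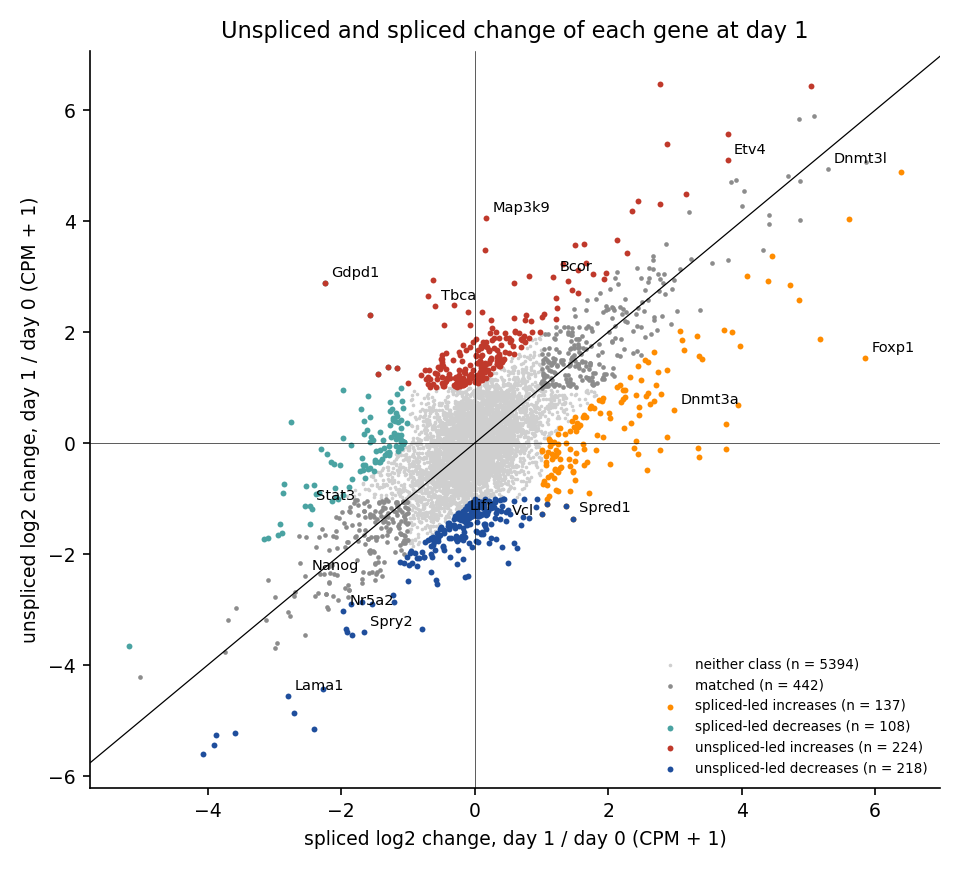
Unspliced (vertical) against spliced (horizontal) log2 change from day 0 to day 1 with a pseudocount of 1 CPM, 1 point per gene for 6514 genes, coloured by class, with a line where both are equal. Red and blue points lie 1 or more above or below the line with an unspliced change of at least 1, and a few genes named in the text are labelled.

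In the 224 unspliced-led increases the median unspliced change was 1.50 while the median spliced change was 0.09, and in the 218 unspliced-led decreases the medians were -1.47 and -0.13. The spliced change was under 1 in size in 191 of the 224 and in 192 of the 218, and had the opposite sign in 92 and in 82. Genes with opposite movement past 1 on both sides fell into 2 classes at once. These were Gdpd1, Gm18227, Tbc1d16, Tlcd2 and Zfp763, which were higher unspliced and lower spliced, and Gm13231, Gm973, Hexdc and Spred1, which were lower unspliced and higher spliced. The counting interval of the difference between the changes excluded 0 for 217 and 216 genes, which the choice by this same difference favours. Among the rest, Jph1, Gm31108, Gm38947, Shisa6, 2610307P16Rik and Tbx15 had intervals that held 0, and Etv4, Col6a5 and 6330410L21Rik had a count of 0 on 1 day. For these genes, 1 or both RNA forms were close to 0 on 1 day, so the pseudocount took part in the class.

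Some listed genes lay close to the lead of 1. Leaving out single capture columns brought the difference between the forms under 1 in size for Lifr (-0.87 at the nearest to 0, from -1.15), Zfp706 (-0.78, from -1.03), Nr5a2 (-0.97, from -1.06), Tdgf1 (-0.92, from -1.12), Sall2 (-0.94, from -1.25) and Mirg (-0.90, from -1.13).

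The balance of the classes followed the scaling. With both tables scaled together there were 295 unspliced-led increases and 27 decreases, and when the shift of the unspliced share was added back to the changes there were 509 and 72. Of the 224 increases, 202 were also increases under the joint scaling. Of the 218 decreases, 27 were also decreases under the joint scaling and 72 with the shift added back. The shift of the unspliced share was 0.31 on the log2 scale, more than the distance of Lifr, Zfp706 and Nr5a2 from the lead of 1. Their class thus rests on each table being scaled to its own total. Under the joint scaling the difference between the forms changed sign for Cd3d (0.52), Tbx15 (0.13) and Etv4 (-1.19). With only the shift of the unspliced share added back, the sign did not change in these genes. The joint scaling also lowers unspliced CPM against the pseudocount, which stayed at 1 CPM, so the weight of the pseudocount changed as well. The rule on totals also draws a line through a continuum. The 17 genes with exactly 200 unspliced UMIs, such as Atp8a2 (unspliced change 0.01), Borcs7 (-0.51) and Chmp5 (-0.18), were included, and the 23 genes with 199, such as 1700126G02Rik (-0.38), 2410017I17Rik (2.64) and AW549877 (-0.72), were not.

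Unspliced levels that did not overlap between the capture columns of the 2 days were rare, at 2.49% of the 6514 genes for higher and 2.5% for lower values at day 1. Among the unspliced-led genes, 30 increases and 46 decreases had this separation, which the choice by unspliced change favours. The genes described first are the 10 on each side with the largest difference between unspliced and spliced change among those. They include signalling enzymes, splicing factors, an X-linked repressor and genes of the cell surface.

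Map3k9 (chr12:81721010-81781175, minus strand of mm10), a kinase that activates the JNK pathway, had 78 UMIs at day 0 and 1707 on day 1. Its unspliced level lay between 0 and 55.2 CPM at day 0 (median 7.47) and between 169 and 862 CPM on day 1 (median 199.9), and 322 of 356 cells had an unspliced UMI at day 1 against 21 of 325 at day 0. The unspliced level at day 1 was 17.7 times the day 0 level (95% counting interval 14.1 to 22.5), while the spliced level went from 4.59 to 5.30 CPM. Without capture column 7 of day 0, which held 32 of the 78 UMIs, the unspliced ratio was 26.6. The unspliced level was 23.4, 48.3 and 38.5 CPM on days 2, 3 and 4, above that of day 0 on each. Tbca, which encodes a tubulin-folding cofactor, and Snrnp35, which encodes a protein of the minor spliceosome, were within a log2 change of 1 of their day 0 unspliced level on all later days. Tbca lay between 8.58 and 65.8 CPM at day 0 (median 43.1) and between 67.8 and 289 CPM on day 1 (median 239) unspliced, and its spliced level was lower on day 1 (from 143 to 93.9 CPM). Snrnp35 lay between 0 and 10.4 CPM at day 0 (median 1.91) and between 19.6 and 86.9 CPM on day 1 (median 40.2) unspliced, with 16.0 to 17.9 CPM spliced. On day 2 they were at 60.6 and 5.53 unspliced CPM.

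Rpl22, which encodes a ribosomal protein of the large subunit, had abundant mRNA and little unspliced RNA. Its unspliced level lay between 16.7 and 44.4 CPM at day 0 (median 32.4) and between 111 and 272 CPM on day 1 (median 179) in the capture columns, and its spliced level was lower, from 854 to 686 CPM. The unspliced level was 5.72 times the day 0 level (95% counting interval 4.86 to 6.77). Eif4ebp2, which encodes a repressor of cap-dependent translation that mTOR controls, likewise went from 48.4 to 140.2 CPM unspliced and from 86.9 to 61.5 CPM spliced, so that the forms moved in opposite directions. Its unspliced columns lay between 2.15 and 75.0 CPM at day 0 (median 47.3) and between 90.9 and 179 CPM on day 1 (median 139).

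Bcor, an X-linked corepressor of a variant Polycomb complex, was higher in both forms, and more so unspliced. The unspliced level lay between 2.06 and 87.5 CPM at day 0 (median 22.7) and between 139 and 330.2 CPM on day 1 (median 206), and the sum at day 1 was 8.19 times the day 0 level (95% counting interval 6.87 to 9.84). The spliced level was 2.29 times (95% counting interval 2.18 to 2.41). Usp29, a paternally expressed imprinted gene that encodes a deubiquitinase, went from 7.41 to 152 CPM unspliced and from 6.67 to 38.3 CPM spliced, and its unspliced level was still 219, 219 and 282 CPM on days 2, 3 and 4. Ppm1h, a protein phosphatase, had 62 UMIs at day 0 and 660 on day 1. Its unspliced columns lay between 0 and 30.2 CPM at day 0 (median 10.2) and between 61.3 and 143 CPM on day 1 (median 118), against a spliced level of 2.73 to 5.54 CPM.

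Slc35f1 and 2610307P16Rik were near 0 at day 0. Slc35f1, a member of a family of solute carriers, had 19 UMIs at day 0 and 1241 on day 1, and the 19 UMIs of day 0 came from 4 cells. Capture column 10 of day 0 held 11 of these 19, and without it the unspliced ratio was 117 in place of 52.9. All 34 spliced UMIs of day 0 were in capture column 3. Without that column the difference between its changes was 1.50, over 1.5 times smaller than with it, and the pseudocount took part in this value. The long noncoding RNA 2610307P16Rik had 28 unspliced UMIs at day 0 and 3614 at day 1 (from 5.46 to 571 CPM). Its spliced UMIs went from 1 to 250, a ratio of 258 with a counting interval from 45.9 to 10243. The difference between its forms was 3.69 with the pseudocount and -1.31 without it, so its class was set by the pseudocount. Usp29, Eif4ebp2, Slc35f1, Ppm1h and 2610307P16Rik overlap other annotated genes on their strand, as do Rnf41, Foxp1, Tfcp2l1, Lef1, Pcgf5, Tsix, Ftx, Meg3, Mirg and Snhg14 below, which counting by strand does not tell apart, so introns of these genes may hold reads of their neighbours.

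Gpnmb, which encodes a membrane glycoprotein, had the largest difference among the decreases whose unspliced columns did not overlap between the days. It had 727 UMIs at day 0 and 19 on day 1 unspliced, 0.0212 times the day 0 level (95% counting interval 0.0127 to 0.0333), and 1557 UMIs at day 0 and 251 on day 1 spliced, 0.167 times (95% counting interval 0.145 to 0.190). The unspliced columns lay between 13.8 and 356 CPM at day 0 (median 121) and between 0 and 13.2 CPM on day 1 (median 0). Capture column 10 of day 1 held 9 of the 19 unspliced UMIs, and without it the unspliced ratio was 0.0125. Its spliced columns lay between 1.82 and 100.4 CPM at day 0 (median 25.7) and between 0 and 63.2 CPM on day 1 (median 0), with 240 of the 251 UMIs of day 1 in a single column. Without that column the spliced ratio was 0.00803 and the difference between the forms was -0.20 in place of -2.75, so its class rests on it. Few cells carried it, with unspliced UMIs in 66 cells at day 0 and in 5 at day 1. Cd3d, best known as a T cell receptor component, lay between 35.4 and 135 CPM at day 0 (median 81.3) and between 0 and 5.32 CPM on day 1 (median 0.710) unspliced and between 118 and 228 CPM at day 0 (median 159) and between 0.210 and 22.3 CPM on day 1 (median 13.9) spliced. Tbx15, a T-box factor, was left with 4 unspliced and 6 spliced UMIs at day 1, from 238 and 278 at day 0, so both forms were near their floor and their order cannot be read.

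Lama1, which encodes a laminin chain of the basement membrane and is also on the list of adhesion genes, was lower in both forms. Its unspliced level lay between 180.3 and 459 CPM at day 0 (median 312) and between 0 and 27.8 CPM on day 1 (median 9.49) and its spliced level between 63.0 and 104 CPM at day 0 (median 77.5) and between 6.55 and 15.7 CPM on day 1 (median 10.1), and neither overlapped between the days. The unspliced level at day 1 was 0.0392 times the day 0 level (95% counting interval 0.0308 to 0.0493), and the spliced level was 0.133 times (95% counting interval 0.120 to 0.147). Dsg2, a desmosomal cadherin, went from 107 to 13.9 CPM unspliced and from 83.0 to 35.5 CPM spliced. Higd1a, a small mitochondrial protein, went from 62.0 to 10.4 CPM unspliced while its mRNA went from 119 to 78.7 CPM.

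In Ddx20 and Rnf41 the forms moved in opposite directions. Ddx20, which encodes a helicase of the SMN complex that assembles splicing particles, lay between 482 and 1259.9 CPM at day 0 (median 648) and between 245 and 359 CPM on day 1 (median 303) unspliced. Its spliced level was 1.66 times (95% counting interval 1.59 to 1.73), from 78.6 to 130.3 CPM. Rnf41, a ubiquitin ligase, lay between 53.6 and 123 CPM at day 0 (median 83.0) and between 12.1 and 39.2 CPM on day 1 (median 22.8) unspliced, and its spliced level went from 17.1 to 22.9 CPM. Yjefn3 and the pseudogene Gm6445 had the same pattern, at -1.15 unspliced and 0.92 spliced and at -1.81 unspliced and 0.59 spliced on the log2 scale. Yjefn3 shares its strand with the abundant gene Ndufa13, which its annotation overlaps, and Gm6445 is a copy of another gene, so the source of their UMIs is uncertain.

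**Figure D3:**
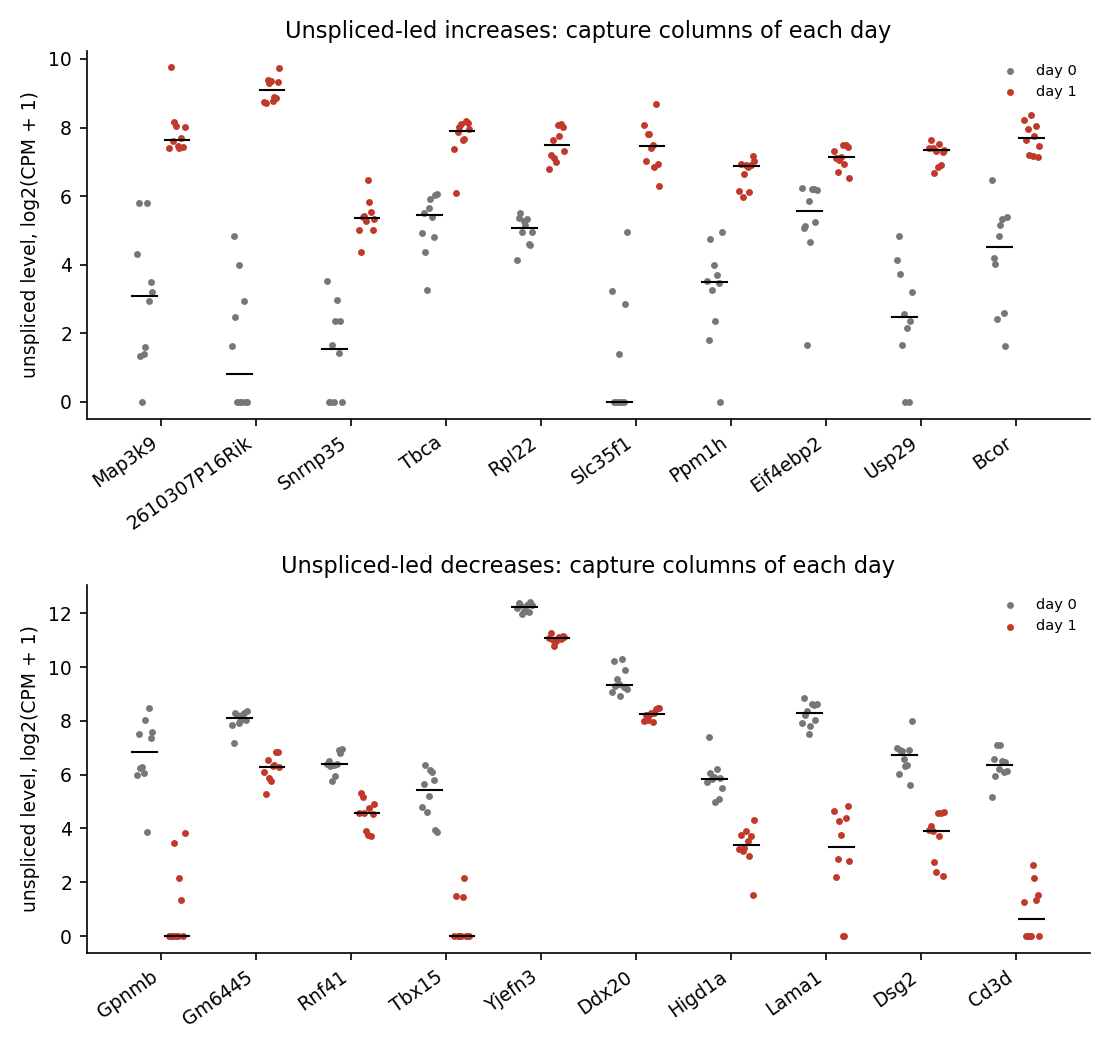
Unspliced level, log2(CPM + 1), of the 10 unspliced-led increases (top) and the 10 decreases (bottom) named by the rule, ordered by the difference between unspliced and spliced change, with 1 point per capture column and a line at the median, day 0 in grey and day 1 in red. In every gene shown the columns of the 2 days do not overlap, which was part of the rule.

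Promoters of these genes were searched for the letters that factors of the Wnt, LIF and ERK pathways, all acted on by the culture medium, are known to bind, namely CTTTGAT (TCF/LEF, Wnt), TTCNNNGAA (STAT) and CCGGAAGT (ETS, ERK), on both strands of the 250 bases before to 50 bases after a RefSeq start (GRCm38.p6). Of the 43 unspliced-led and spliced-led genes named in the text, 33 had a promoter in the table. Matches were in Bcor, Cd3d and Rnf41 only, and the other genes with a promoter held none. Windows of 30 bases around these matches follow, 5′ to 3′ on the strand of the gene, with the matching letters in capitals. They lie at chrX:12160440-12160469 (Bcor, minus strand), chr9:44981720-44981749 and chr9:44981579-44981608 (Cd3d, plus strand) and chr10:128411499-128411528 (Rnf41, plus strand).
Bcor STAT: ccaaactcacTTCGGAGAAagggaaagagc
Cd3d TCF/LEF: agtcttacaccATCAAAGgcagaaggtaga
Cd3d STAT: tcccttacacTTCCTAGAAttctgaacaaa
Rnf41 ETS: ccgtcctaagaACTTCCGGcccagagcgga
Of all 32851 promoters, 3.73% held the TCF/LEF letters, 8.30% the STAT letters and 3.89% the ETS letters. Of the 6514 genes, 5141 had a promoter, and among those the shares were 2.65%, 7.76% and 9.92%. These matches are a description and no sign of binding. A promoter was in the table for 75.4% of the unspliced-led increases and 76.6% of the decreases. Among those the shares, in the same order, were 4.73%, 7.10% and 8.28% in the increases and 0.599%, 7.78% and 11.4% in the decreases. The TCF/LEF shares stand for 8 genes and 1 gene, and no share was tested.

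Naive pluripotency genes were mostly lower at day 1. Of 20 listed genes in the table, 14 were included, of which 9 were lower unspliced and 8 lower spliced by a log2 change of 1 or more, and none was that much higher unspliced, against 10.6% lower unspliced, 6.86% lower spliced and 11.6% higher unspliced of all. Their median change was -2.16 unspliced and -1.17 spliced, against -0.04 and 0.00 over the 6514 genes. The transcription factors Nanog, Klf4, Klf5, Tfcp2l1, Tbx3 and Prdm14 were matched decreases. Nanog had a change of -2.39 unspliced and -2.54 spliced, and Tfcp2l1, the most abundant of them in unspliced RNA, went from 768 to 87.9 CPM unspliced and from 1508 to 221 CPM spliced. Esrrb was past 1 in unspliced RNA (-1.20) but not in spliced RNA (-0.62), and the difference of -0.58 left it outside the class.

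Nr5a2 and Dppa5a were the unspliced-led members of this list, in a class of 218 among all 6514 genes. Nr5a2, a nuclear receptor that binds regulatory DNA of pluripotency genes, lay between 179 and 469 CPM at day 0 (median 316) and between 1.85 and 79.0 CPM on day 1 (median 37.3) unspliced and between 43.2 and 109 CPM at day 0 (median 94.4) and between 10.1 and 43.4 CPM on day 1 (median 20.3) spliced. Its unspliced level at day 1 was 0.119 times the day 0 level (95% counting interval 0.104 to 0.137) and its spliced level 0.247 times (95% counting interval 0.230 to 0.266). On day 2 the spliced level was 5.79 CPM. Dppa5a, an RNA-binding protein and one of the most abundant mRNAs of naive cells, lay between 342 and 489 CPM at day 0 (median 422) and between 36.9 and 115 CPM on day 1 (median 54.6) unspliced, and its mRNA went from 4351 to 1858 CPM. The unspliced columns of the 2 days did not overlap in either gene. Tdgf1, a coreceptor for Nodal on the same list, went the other way as a spliced-led increase, from 116 to 107 CPM unspliced and from 359 to 721 CPM spliced.

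Lifr (chr15:7090614-7197489, plus strand of mm10), which encodes the receptor for the withdrawn cytokine, had lower unspliced RNA while its mRNA had hardly moved. The unspliced columns lay between 6.19 and 148 CPM at day 0 (median 43.4) and between 5.23 and 85.0 CPM on day 1 (median 15.7) and overlapped between the days, with 21.3% of the 141 unspliced UMIs of day 1 in a single cell. The unspliced level was 0.392 times the day 0 level (95% counting interval 0.319 to 0.481), and the spliced level was 0.891 times (95% counting interval 0.833 to 0.954). Capture column 10 of day 1 held 58 of the 141 unspliced UMIs, and without it the unspliced ratio was 0.259. The 2 spliced levels were close, at 42.7 to 38.1 CPM, and on day 2 the spliced level was 5.16 CPM. Stat3, the factor below the receptor, had the reverse order, with a change of -1.14 unspliced and -2.47 spliced, as a spliced-led decrease from 52.4 to 8.65 CPM. Without capture column 5 of day 1 the difference between its forms was 0.82, under the lead of 1. Mras, a small GTPase on the same list of 4 included genes, was a matched decrease (-1.69 unspliced and -2.34 spliced).

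ERK feedback genes, which the MEK inhibitor holds down, moved in different directions. Of 21 listed genes in the table, 6 were included. Spry2, an inhibitor of receptor tyrosine kinase signalling, had 203 UMIs at day 0 and 18 on day 1, but 77.8% of the 18 UMIs of day 1 lay in a single cell. Without the capture column of that cell the difference between the forms was -3.01 in place of -1.74. Its unspliced columns lay between 12.1 and 99.1 CPM at day 0 (median 33.4) and between 0 and 22.0 CPM on day 1 (median 0), and its mRNA went from 52.6 to 15.9 CPM. Spred1, a related inhibitor, had opposite changes, from 75.9 to 28.9 CPM unspliced and from 12.7 to 37.2 CPM spliced, where the spliced columns did not overlap. The unspliced columns lay between 21.5 and 187 CPM at day 0 (median 54.1) and between 0 and 96.3 CPM on day 1 (median 13.5) and did overlap. Etv4, an ETS factor and a direct target of the pathway, had no unspliced UMI at day 0 and 211 at day 1, at least 57.0-fold higher when 3 UMIs are set for day 0. Its spliced UMIs went from 7 to 627, so that the order of its forms cannot be read. Etv1 was a matched increase (2.69 unspliced and 2.86 spliced), and Spred2 had a change of 1.26 unspliced and 0.53 spliced.

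Genes of adhesion and the cytoskeleton held 3 unspliced-led decreases among 16 included (3.35% of all 6514 genes were in this class), which were Vcl, Col4a2 and Lama1. Their median change was -0.67 unspliced and -0.02 spliced, and 9 of the 16 fell and 1 rose in TX1072 bulk from day 1 to day 2, against 18.9% and 20.3% of all genes tested. Vcl (chr14:20929398-21033676, plus strand) encodes vinculin, which links adhesion sites to actin. Its unspliced level lay between 143 and 341 CPM at day 0 (median 218) and between 35.7 and 178 CPM on day 1 (median 85.2), with an overlap that came from a single column of day 1, and its mRNA was higher at day 1 (from 61.0 to 84.9 CPM). The unspliced level was 0.373 times the day 0 level (95% counting interval 0.337 to 0.413) and the spliced level 1.39 times (95% counting interval 1.32 to 1.47). Col4a2, a chain of the collagen of basement membranes, had 156 UMIs at day 0 and 62 on day 1 unspliced, 0.322 times the day 0 level (95% counting interval 0.236 to 0.435), and 11.9 to 13.5 CPM spliced, and its unspliced columns overlapped. Without capture column 3 of day 1, with 27 of the 62 UMIs, the unspliced ratio was 0.202. In Tpm1, an actin-binding tropomyosin, only the spliced level moved past 1, from 86.6 to 206 CPM (-0.02 unspliced and 1.24 spliced).

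Of 17 included genes listed as drivers of the exit from the naive state, Zfp706 was the unspliced-led one, against 224 increases and 218 decreases among all 6514 genes. This zinc finger gene had 416 UMIs at day 0 and 186 on day 1 unspliced, 0.362 times the day 0 level (95% counting interval 0.303 to 0.431). The unspliced columns lay between 27.4 and 206 CPM at day 0 (median 71.6) and between 4.71 and 84.7 CPM on day 1 (median 19.7) and overlapped, and the mRNA went from 441 to 333 CPM. Fgfr2, the receptor for fibroblast growth factors, was a spliced-led increase from 5.60 to 13.7 CPM, but its unspliced level of 6903 CPM cannot be assigned to it, since the gene model spans chr7:130162451-133123350 on mm10 and holds many other genes of the same strand.

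**Figure D4:**
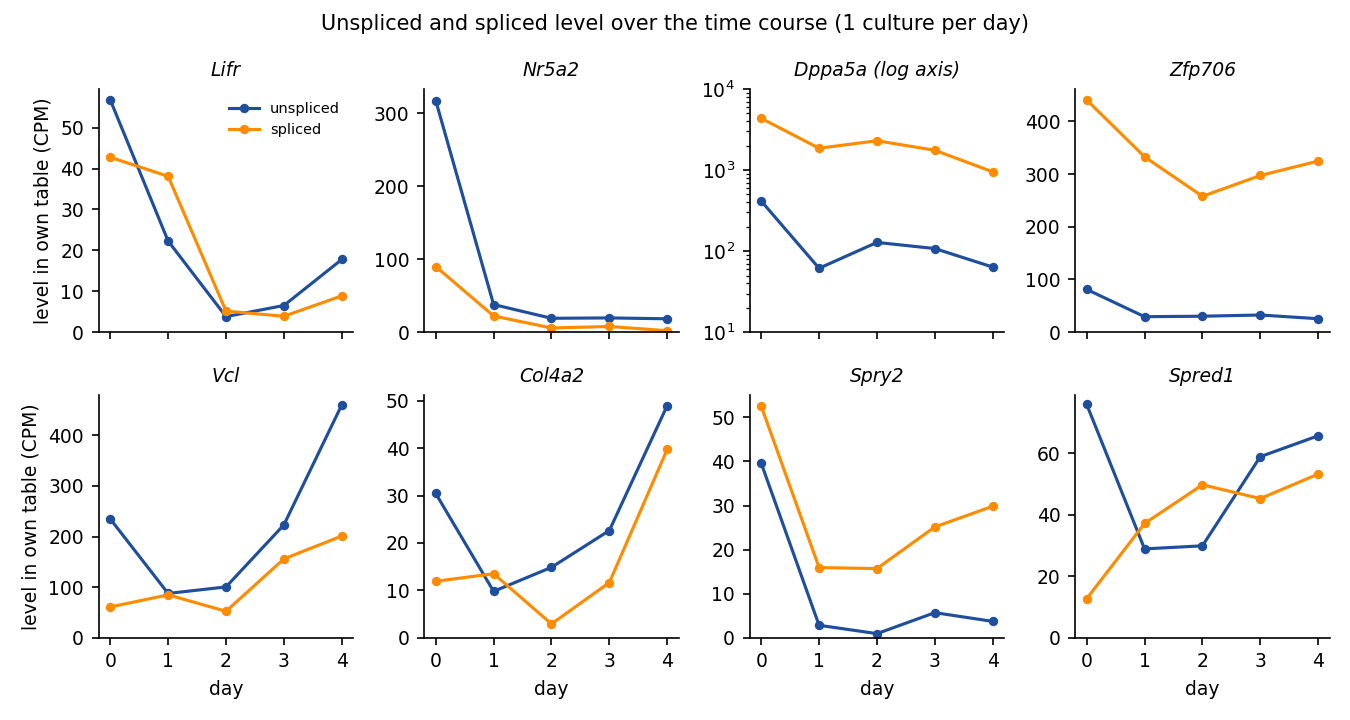
Unspliced and spliced level (CPM in each table) of 8 listed genes with an unspliced-led decrease, over days 0 to 4, 1 culture per day, with a log axis for Dppa5a only. In Lifr, Vcl, Col4a2 and Zfp706 the unspliced level was lower at day 1 and the spliced level was lower at day 2 than at day 1.

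Of 5 included formative genes, 3 were higher and 1 was lower unspliced by a log2 change of 1 or more (against 11.6% and 10.6% of all included genes), and 4 were higher and 1 was lower spliced (against 8.09% and 6.86%). Lef1 and Grhl2, transcription factors of the formative state, were matched increases, with changes of 2.79 unspliced and 2.96 spliced for Lef1 and 3.14 unspliced and 3.07 spliced for Grhl2. Sall2 was a spliced-led increase (-0.16 unspliced and 1.09 spliced), and Cdh2, N-cadherin, was a matched decrease (-1.29 unspliced and -1.17 spliced). Of 9 included genes of DNA methylation, Dnmt3l (4.93 unspliced and 5.29 spliced) and Dnmt3b (1.64 unspliced and 1.91 spliced) were matched increases, a class of 3.81% of all 6514 genes, and Tet2, which oxidises methylated cytosine, was lower in both forms (-0.86 unspliced and -1.07 spliced). Dnmt3a, the other de novo enzyme, was a spliced-led increase. Its spliced level lay between 25.9 and 49.2 CPM at day 0 (median 39.9) and between 292 and 435 CPM on day 1 (median 317), 8.14 times (95% counting interval 7.74 to 8.56), whereas its unspliced level lay between 77.0 and 158 CPM at day 0 (median 128) and between 148 and 220.4 CPM on day 1 (median 174). Apart from Bcor, which was not on the list, no Polycomb gene of the 19 listed and included led in either form, where 3.44% and 3.35% of all 6514 genes were unspliced-led increases and decreases and 2.10% and 1.66% were spliced-led. Phc1 was a matched increase (1.44 unspliced and 1.43 spliced). Pcgf6 (1.29 unspliced and 0.54 spliced), Cbx7 (1.55 unspliced and 0.78 spliced) and Pcgf5 (-1.05 unspliced and -0.19 spliced) had unspliced changes past 1 that were less than 1 from the spliced changes.

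No unspliced-led gene was among the 6 nuclear noncoding RNAs and 4 genes of the X-inactivation centre that could enter a class, classes that held 3.44% and 3.35% of all 6514 genes. Tsix, the antisense partner of Xist, went from 573 to 1333 CPM unspliced and from 22.0 to 68.0 CPM spliced, and Ftx, a noncoding activator of Xist, had a change of 2.70 unspliced and 1.88 spliced. Tsix runs across Xist on the other strand, and the single-cell protocol keeps the strand. Meg3 (1.06 unspliced and 1.17 spliced) and Snhg14 (2.98 unspliced and 2.49 spliced), from imprinted clusters, were matched increases, and Mirg (1.01 unspliced and 2.14 spliced) and Platr4 (0.47 unspliced and 1.62 spliced) were spliced-led. Wnt targets had 2 included genes of 16, of which Lef1 was named above.

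The genes with the largest lead of the spliced form show the reverse pattern. Foxp1, a forkhead factor with roles in pluripotency, had 42 spliced UMIs at day 0 and 4705 at day 1 or 116 times (95% counting interval 85.5 to 161), against 75.1 to 218 CPM unspliced. Of the 42, 17 were in capture column 4, and without it the ratio was 176. Its spliced columns lay between 0 and 4.27 CPM at day 0 (median 0.512) and between 85.1 and 171 CPM on day 1 (median 115). Ryr3, a calcium release channel of the endoplasmic reticulum, had no spliced UMI at day 0 and 523 at day 1, at least 180.1-fold higher when 3 UMIs are set for day 0, while its unspliced level went from 199.6 to 185 CPM. Ddx58, the RNA sensor RIG-I, went from 9.89 to 111 CPM spliced and from 105 to 88.6 CPM unspliced. On the side of the decreases, She, an adaptor protein, went from 21.2 to 2.31 CPM spliced and P2rx4, a channel gated by ATP, from 21.1 to 2.05 CPM, while their unspliced changes were 0.38 and -0.74. Gm29394 (0.99 unspliced and -1.11 spliced) overlaps Zhx1 on its strand.

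On the later days of the single-cell series, which were not used by the rule but share the day 0 cells with it, the unspliced changes of the classes shrank. In the unspliced-led increases the median unspliced change from day 0 was 1.13, 1.00 and 0.79 on days 2, 3 and 4, and in the decreases it was -1.16, -0.97 and -0.78. The median spliced change was 0.19, 0.07 and 0.05 in the increases and -0.32, -0.27 and -0.19 in the decreases. Of the increases 63 (28.1%) kept an unspliced change of 1 or more on all 3 later days and 53 (23.7%) were within 1 on all of them, against 4.62% and 61.2% of all 6514 genes. Of the decreases, 62 (28.4%) kept a change of 1 or more downward and 64 (29.4%) were within 1, against 6.09% and 61.2%. Among the matched increases and decreases, 43.1% and 51.0% kept their unspliced change on all 3 later days. The later changes start from the day 0 sums that chose the genes, which favours kept changes. Choice by the change at day 1 also favours smaller changes later, so these shares were in part set by the rule. The spliced level was up by 1 or more at day 2 in 41 of the 224 increases (18.3%, against 7.89% of all 6514 genes) and down by 1 or more in 49 of the 218 decreases (22.5%, against 10.7%). These counts include genes whose spliced change had passed 1 at day 1, such as Bcor and Lama1. They were thus in part set by the choice of genes.

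Among the listed genes, the later course differed. Vcl was at 101, 223 and 460.1 unspliced CPM and 52.5, 156 and 201 spliced CPM on days 2, 3 and 4, and Col4a2 at 14.9, 22.6 and 49.0 and 2.93, 11.7 and 39.7. In both genes the spliced level was lowest on day 2 and the unspliced level of day 4 was above that of day 0. Lifr, by contrast, was still below its day 0 level on day 4 in both forms, with 3.81, 6.52 and 17.8 unspliced CPM and 5.16, 3.90 and 8.87 spliced CPM, and Nr5a2 was at 19.1, 19.6 and 18.4 and 5.79, 7.82 and 2.02. Spry2 remained at 0.953, 5.71 and 3.73 unspliced CPM, while its spliced level was 15.7, 25.1 and 29.8 CPM.

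Bulk RNA gives replicates and a test. Between day 0 and day 1, the interval that chose the genes by their unspliced RNA in single cells, a minority of the unspliced-led genes changed in the same direction in TX1072 bulk. Of the 223 increases tested, 75 (33.6%) were called higher and 35 (15.7%) lower by edgeR at an adjusted p of 0.05, against 23.5% and 23.4% of all 18871 genes. Of the 212 decreases tested, 76 (35.8%) were called lower and 28 (13.2%) higher. Of the 6286 tested genes that could enter a class, 20.6% were called higher and 27.9% lower. The matched genes were called in their direction in 226 of 233 and 182 of 188, and the spliced-led genes in 119 of 130 and 99 of 104. Both were chosen for a spliced change of 1 or more at day 1, and the unspliced-led genes for a spliced change that lagged, so the contrast between them was in part set by the rule. Fewer cells that express a gene and less RNA per cell cannot be told apart in bulk, and since total RNA was sequenced the reads on exons can also come from precursor RNA.

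From day 1 to day 2, most of the unspliced-led decreases that changed fell. In TX1072, 70 of 212 (33.0%) were called lower and 12 (5.66%) higher, against 18.9% and 20.3% of all genes and 20.8% and 17.0% of the 6286 tested genes that could enter a class. In TXdXicB6, 78 (36.8%) were called lower and 11 (5.19%) higher, with a background of 16.8% and 16%. In TXdXicCast these were 87 (41.0%) and 10 (4.72%), with a background of 18.3% and 17.6%. Without replicate 2 the 87 of TXdXicCast became 53, and without replicate 3 the 12 of TX1072 became 6. The difference between these shares and the background was not tested, since the genes of a class are not replicates. The matched decreases, most of which had fallen by day 1 already, were called lower over this interval in 97 of 188 (51.6%) in TX1072.

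Over the same interval, 64 of the 223 unspliced-led increases (28.7%) were called higher and 37 (16.6%) lower in TX1072, against 17.0% and 20.8% of the genes that could enter a class. In TXdXicB6 there were 59 (26.5%) and 33 (14.8%), against 882 and 1279 of 6296 such genes, and in TXdXicCast 61 (27.4%) and 44 (19.7%), against 14.9% and 23.2%. The lower calls were thus no more frequent than among those genes. Without replicate 3 the 37 of TX1072 became 22, and without replicate 2 the 59 of TXdXicB6 became 39. Called higher at day 2 in all 3 lines were 45 of the 223 increases (20.2%), against 10.5% of the 6285 genes of any class or none, and called lower in all 3 were 60 of the 212 decreases (28.3%), against 15.8%. Of the 60, 31 were not called lower in TX1072 at day 1, which is 14.6% of the 212 against 9.98% of the 6285 genes, among them Lifr, Vcl, Col4a2 and Zfp706. Of the 45, 24 were not called higher at day 1, which is 10.8% of the 223 against 7.18%, and none of these is among the named genes.

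**Figure D5:**
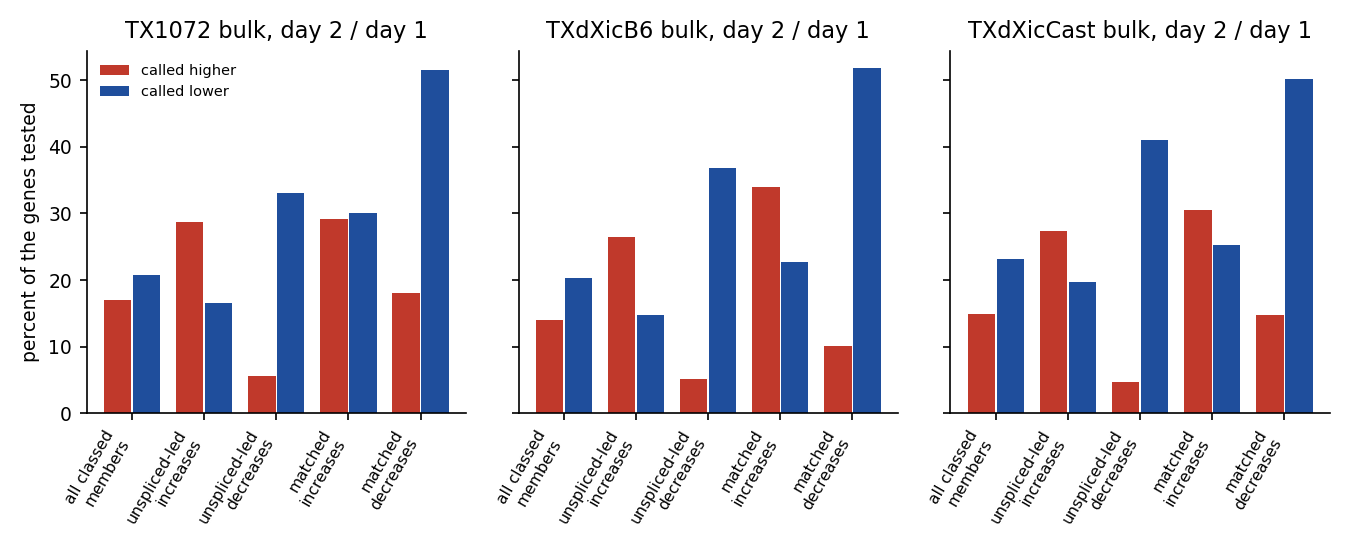
Percent of the tested genes of each class that edgeR called higher (red) or lower (blue) at day 2 than at day 1 (adjusted p of 0.05) in bulk RNA of the 3 lines, 3 replicates per day, beside all tested genes that could enter a class (6286 in TX1072 and 6296 in each deletion line). The unspliced-led decreases have 33.0%, 36.8% and 41.0% called lower, against 20.8%, 20.3% and 23.2% of all.

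Lifr was level in bulk at day 1 and fell by day 2. Its level in the 3 TX1072 replicates was 76.9, 76.5 and 71.1 CPM before withdrawal, 72.0, 61.7 and 75.8 CPM after 1 day and 11.7, 12.4 and 17.9 CPM after 2 days. The replicates of day 0 and day 1 overlapped and those of day 2 lay far below. The log2 change was -0.10 ± 0.15 (SE, adjusted p = 0.611) at day 1 and -2.31 ± 0.16 (SE, adjusted p = 3.02e-09) from day 1 to day 2. In TXdXicB6 it went from 92.2, 83.9 and 93.2 CPM at day 1 to 30.1, 31.1 and 23.8 at day 2, with a change of -1.66 ± 0.18 (SE, adjusted p = 2.54e-08), and in TXdXicCast from 81.2, 88.9 and 74.2 CPM to 19.7, 27.2 and 14.4 (edgeR adjusted p = 1.15e-09).

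Col4a2 and Vcl were level or higher in TX1072 bulk at day 1 and lower at day 2. Col4a2 was at 16.4, 20.3 and 17.7 CPM, then 17.9, 26.1 and 22.6 CPM, then 5.37, 6.20 and 6.33 CPM on days 0, 1 and 2, a change of 0.29 ± 0.15 (SE, adjusted p = 0.117) and then of -1.89 ± 0.16 (SE, adjusted p = 3.46e-08). In TXdXicB6, Col4a2 was already lower at day 1, from 44.6, 34.2 and 35.5 CPM to 30.2, 24.8 and 29.6. In TXdXicCast, with degraded RNA at day 0, it went from 49.4, 26.1 and 39.1 CPM to 27.4, 26.3 and 19.7. These day 1 changes of the deletion lines were not tested. Vcl was at 94.3, 98.6 and 83.9 CPM, then 119, 120.5 and 125, then 65.8, 62.3 and 67.4. It was called higher at day 1 (0.40 ± 0.11 (SE, adjusted p = 0.005)) and lower at day 2 (-0.90 ± 0.11 (SE, adjusted p = 3e-06)), and the same decrease was called in TXdXicB6 (-0.92 ± 0.15 (SE, adjusted p = 1.75e-05)) and TXdXicCast (-0.92 ± 0.15 (SE, adjusted p = 1.47e-05)). Zfp706 changed by -0.16 ± 0.12 (SE, adjusted p = 0.311) and then by -0.84 ± 0.13 (SE, adjusted p = 3.51e-05).

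Nr5a2, Dppa5a, Spry2, Lama1 and Cd3d fell at day 1 and again at day 2 in TX1072. From day 1 to day 2, Nr5a2 changed by -1.86 ± 0.17 (SE, adjusted p = 8.4e-08), Dppa5a by -0.56 ± 0.13 (SE, adjusted p = 0.003), Spry2 by -0.43 ± 0.13 (SE, adjusted p = 0.016) and Lama1 by -2.41 ± 0.14 (SE, adjusted p = 5.33e-10). Cd3d, at 2.01, 2.67 and 1.46 CPM at day 1, changed by -4.78 ± 0.47 (SE, adjusted p = 2.92e-07). All 5 were also called lower over this interval in both deletion lines. In the single cells, by contrast, Dppa5a was higher at day 2 than at day 1, from 61.5 to 128 CPM unspliced and from 1858 to 2300 CPM spliced.

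Some of the other genes with the largest lead changed at day 1 in bulk in the direction of their unspliced RNA. In all of these the spliced RNA had moved in that direction too, so bulk does not tell the forms apart. The lead itself is uncertain in 2610307P16Rik, Gpnmb and Tbx15, as described above. Slc35f1 rose by 5.30 ± 0.38 (SE, adjusted p = 3.21e-09), 2610307P16Rik by 5.93 ± 0.39 (SE, adjusted p = 9e-10), Usp29 by 1.69 ± 0.19 (SE, adjusted p = 8.74e-07) and Bcor by 0.93 ± 0.17 (SE, adjusted p = 0.000237) on the log2 scale. Gpnmb changed by -4.35 ± 0.18 (SE, adjusted p = 4.05e-12), Tbx15 by -4.27 ± 0.25 (SE, adjusted p = 2.74e-10) and Dsg2 by -1.22 ± 0.18 (SE, adjusted p = 1.88e-05).

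Others were not called at day 1 or changed against their unspliced RNA. Map3k9, Tbca, Snrnp35 and Eif4ebp2 were not called at day 1, with log2 changes of 0.28 ± 0.14 (SE, adjusted p = 0.12), -0.16 ± 0.12 (SE, adjusted p = 0.294), -0.31 ± 0.13 (SE, adjusted p = 0.055) and -0.31 ± 0.19 (SE, adjusted p = 0.197). At day 2 Map3k9 was called higher (0.60 ± 0.14 (SE, adjusted p = 0.002)) in TX1072 but in neither deletion line, where it changed by 0.24 ± 0.20 (SE, adjusted p = 0.386) and 0.39 ± 0.20 (SE, adjusted p = 0.125). Rpl22 was called lower at day 1 (-0.42 ± 0.12 (SE, adjusted p = 0.007)), as its spliced level was. Ddx20 (0.46 ± 0.13 (SE, adjusted p = 0.006)), Rnf41 (0.39 ± 0.11 (SE, adjusted p = 0.009)) and Yjefn3 (1.57 ± 0.34 (SE, adjusted p = 0.00087)) were called higher at day 1, opposite to their unspliced RNA, and Rnf41 was called higher again at day 2 in all 3 lines. Yjefn3 was low in TX1072, from 0.24, 0.23 and 0.45 CPM to 0.76, 1.14 and 0.76. It went from 1.67, 1.37 and 1.08 CPM to 1.79, 1.77 and 1.40 in TXdXicB6. In TXdXicCast it went from 3.28, 2.04 and 2.02 CPM to 1.22, 1.29 and 1.82, and these changes of the deletion lines were not tested. Gm6445 and Higd1a were called on neither interval in TX1072. Ppm1h was the named increase called higher at day 2 in every line, at 3.90, 2.46 and 2.56 CPM, 10.6, 8.73 and 9.08 CPM and 22.7, 22.4 and 22.4 CPM in TX1072 on days 0, 1 and 2, with a change of 1.25 ± 0.16 (SE, adjusted p = 7.31e-06) from day 1. Usp29 was called in both deletion lines, and in TX1072 only with the replicate number as a block (log2 change 0.46).

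Several features of the genes, apart from the alleles, were not used by the rule. The median length of the gene on mm10 was 40226 bases in the unspliced-led increases and 29380.5 in the decreases, against 41854 over the 6514 genes, and the median number of exons was 9 in both, against 12. Another annotated gene lay on the same strand in 29.0% and 27.1%, against 31.7%. X-linked genes made up 4.02% and 2.75%, against 3.98%. UMIs assigned to an allele were enough (20 or more on each) for 13 of the genes that the unspliced-led rule named, and in all 13 both alleles changed in the direction of the sum. These UMIs are part of the sums that chose the genes, so the choice favours this agreement. Only the direction was compared, and the size differed between the alleles in some genes. Tbca went from 24 to 69 UMIs on B6 and from 80 to 1081 on Cast. Bcor went from 3 to 143 on B6 and from 24 to 100 on Cast. Of all 54 named genes with enough such UMIs, both alleles changed in the direction of the sum in 49.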

How the data were processed

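Single-cell RNA was captured on C1-HT chips (days 0 to 4, 1 culture per day, 400 sites per day) as 3′ UMI libraries. Counts were deposited by the authors as raw UMIs per gene and cell, from reads aligned with STAR to mm10, in a spliced table (UMIs on exons only) and an unspliced table (UMIs overlapping introns). Bulk counts were deposited by the authors as raw featureCounts values per gene. The submitters' processing notes name STAR 2.5.2b, featureCounts and GRCm38/mm10. A further set of deposited UMI counts was split by allele. Every column used was mapped to a sample or group by its name (0 columns were not).

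Spike-in rows were left out, UMIs were summed over cells with 40000 or more UMIs and scaled to CPM per table, and log2 changes used a pseudocount of 1 CPM. Plain ratios of CPM have exact 95% binomial intervals without a pseudocount. Bulk tests were edgeR 4.0.16 quasi-likelihood fits (TMM, filterByExpr, R 4.3.3, two-sided, Benjamini-Hochberg), with 15 TX1072 libraries in 1 fit and the 30 libraries of TXdXicB6 and TXdXicCast in another, and bulk levels are CPM after TMM. Depth was 19827011 to 39628784 reads on genes in TX1072, 20246434 to 49962859 in TXdXicB6 and 16906263 to 57920260 in TXdXicCast. The RNA of the undifferentiated TXdXicCast libraries was degraded, and they entered the fit only through the shared spread. According to the study, each biological replicate was started on its own day, so a replicate number marks a shared start. Deviations of same-numbered TX1072 samples from their group means correlated by over 0.1 in 17 of 30 pairs of days (median 0.13), those of TXdXicB6 in 24 of 30 (median 0.21) and those of TXdXicCast in 19 of 30 (median 0.15).

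The genes named are, in each unspliced-led class, the 10 with the largest difference between forms among those whose unspliced capture columns did not overlap between days, in each spliced-led class the 3 by the same measure for spliced columns, and members of the gene lists. The members, lists and rules were chosen with earlier results of these data known. Genes just inside or outside the minimum, of 2 classes, or below the spliced minimum were named after their values were seen. Alternatives were other scalings, cell sets, minimums, pseudocounts and leads, left-out capture columns and replicates, DESeq2 1.42.0, RLE factors, no filter and a replicate block. Added after seeing the data were ratios of single genes without each capture column, the shift of the unspliced share, genes with no overlap on their strand, and the deletion lines without the degraded libraries. Steps across genes were tested on simulated data. Annotation was GENCODE on GRCm38, and promoters were from RefSeq.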

Additional observations from a re-analysis of the deposited data

Results flagged for a closer look

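In 17 of 88 groups of 10 capture columns tested for the named genes, the highest or lowest column stood further from its nearest neighbour than Dixon's 95% critical value allows, where chance flags about 1 group in 20. In unspliced CPM, Map3k9 at day 1 had a column at 862 (next 283), Lifr at day 1 one at 85.0 (next 29.6), Vcl at day 1 one at 178 (next 103), Col4a2 at day 1 one at 42.4 (next 21.4), Spry2 at day 1 one at 22.0 (next 2.84) and Tbx15 at day 1 one at 3.49 (next 1.78). Also unspliced, at day 0, Bcor had a column at 87.5 (next 41.1), Dsg2 one at 252 (next 125), Higd1a one at 167 (next 72.4), Slc35f1 one at 30.2 (next 8.34) and Gm6445 a low one at 142 (next 231). In spliced CPM, Dnmt3a at day 1 had a column at 435 (next 337), Mirg at day 1 one at 40.6 (next 18.5), P2rx4 one at 43.5 at day 0 (next 25.1) and one at 7.38 at day 1 (next 3.23), She at day 0 one at 39.8 (next 24.9) and Foxp1 at day 0 one at 4.27 (next 1.82). The high columns of Lifr, Vcl, Col4a2, Spry2, Tbx15 and P2rx4 at day 1 lie against the direction of their summed change. So do the high columns of Bcor, Slc35f1 and Foxp1 and the low column of Gm6445 at day 0.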

How the results depend on the processing

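The numbers of unspliced-led increases and decreases (224 and 218) and of spliced-led increases and decreases (137 and 108) moved by over 1.5 times with the scaling and the thresholds. With both tables scaled together there were 27 unspliced-led and 206 spliced-led decreases. The difference between the forms changed sign in Cd3d (0.52), Tbx15 (0.13) and Etv4 (-1.19), and the cause was not tested. Joint scaling also changes the weight of the pseudocount of 1 CPM on the unspliced levels, so its counts do not come from the scaling alone. With the shift of the unspliced share added there were 509, 72, 88 and 197. A minimum of 100 unspliced UMIs gave 340 unspliced-led increases and 357 decreases, and one of 400 gave 136, 121, 91 and 66 in the 4 classes. A pseudocount of 5 CPM left 62 and 46 spliced-led genes. A lead of 0.5 gave 383, 452, 244 and 219, and a lead of 1.5 gave 96, 65, 73 and 44. Without single capture columns the classes held 206 to 246, 201 to 233, 116 to 145 and 98 to 115 genes.

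In bulk, no other tool, scaling or filter moved a count of calls by over 1.5 times. Without single replicates, TX1072 had 50 to 62 unspliced-led increases called higher and 22 to 34 called lower from day 1 to day 2, and 55 to 66 decreases called lower and 6 to 10 called higher. From day 0 to day 1 there were 58 to 70 increases called higher and 60 to 69 decreases called lower. TXdXicB6 had 39 to 50 increases called higher and 54 to 67 decreases called lower, and TXdXicCast 44 to 58 and 53 to 74. The counts that moved by over 1.5 times were those without replicate 3 in TX1072 (22 in place of 37, and 6 in place of 12) and without replicate 2 in TXdXicB6 (39 in place of 59) and TXdXicCast (53 in place of 87). With the replicate block, TX1072 had 73 and 42 unspliced-led increases called higher and lower and 76 and 15 decreases called lower and higher from day 1 to day 2, with 79 and 78 called in their direction from day 0 to day 1, and TXdXicB6 had 61 and 81 and TXdXicCast 66 and 95. Among the named genes the block changed only the calls of Usp29 from day 1 to day 2 (0.46) and Spred2 at day 1 (0.53), which both passed with it. Genes with under about 100 unspliced UMIs on a day, which is the median of the increases at day 0 (96.5), are limited by depth.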
